A study of Mus musculus with 17 samples.

Results

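Levels of 9 genes of retinoic acid synthesis, binding, degradation and response were read in single whole mouse embryos: Stra6, Dhrs3, Aldh1a2, Aldh1a3, Crabp1, Crabp2, Cyp26b1, Cyp26c1 and Rarb. The genes were taken by symbol from a table of 41709 gene symbols, in which all 9 were found, and are given here in all 17 libraries. Each library holds the RNA of 1 embryo of the C57BL/6J strain. At E9.5, 4 wild-type embryos (Disp1_WT) stand beside 4 embryos with a CS allele from the dam and an INDEL allele from the sire (Disp1_CS_INDEL, written Disp1CS/INDEL by the submitters). At E8.5, 4 Myo10+/+ embryos (Myo10_WT) stand beside 5 embryos homozygous for the m1J allele (Myo10_m1J), from crosses of heterozygous parents. Disp1 encodes Dispatched, which releases lipid-bearing Hedgehog ligands from cells, and Myo10 encodes myosin X, a motor of filopodia. No Cre or transgene is named in the labels, embryos were not pooled, and which embryos were littermates is not stated.

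Retinoic acid is a small lipid made from vitamin A that acts as a graded signal along the trunk, hindbrain, heart field and eye of the early embryo. Retinol enters cells and is oxidised to retinaldehyde and then, by enzymes of the Aldh1a family, to retinoic acid, while Cyp26 enzymes break retinoic acid down and so set where it can act. Inside cells it is carried by small binding proteins and acts through nuclear receptors that sit on DNA as dimers with an Rxr partner. Several genes of the pathway, Rarb and Cyp26a1 among them, are known targets of the signal itself.

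Values are TPM, transcript abundances scaled by length and to the same total in each library, so levels of different genes can be set side by side and read depth is not known. The number of genes at 1 TPM or more was 13103 to 13408 at E9.5 and 11926 to 12957 at E8.5. The targeted transcript Myo10 lay at 2.16 to 4.35 TPM in Myo10_m1J and at 19.9 to 33.9 TPM in Myo10_WT. Disp1 lay at 11.6 to 16.3 TPM in Disp1_CS_INDEL and at 15.3 to 19.3 TPM in Disp1_WT and the groups overlapped. Structural RNA, histone, small nucleolar and mitochondrial genes took 31.1 to 41.7% of all TPM at E8.5 and 2.74 to 4.51% at E9.5, and the other genes have correspondingly less of the total at E8.5. Disp1_WT replicate 3 stood apart at E9.5, with 1073 TPM summed over 11 yolk sac endoderm markers (53.1 to 106 in the other 7) and 810.2 TPM over 10 decidua and trophoblast markers (64.6 to 113 in the other 7). It and Disp1_CS_INDEL replicate 1 were low in the 7 tail bud markers (35.5 and 40.8 TPM, against 118 to 148 in the other 6). At E8.5, Myo10_m1J replicate 2 held 254 TPM of decidua and trophoblast markers (14.9 to 73.0 in the other 8). The yolk sac endoderm markers summed to 720 to 2534.5 TPM in the E8.5 embryos, above every E9.5 embryo except Disp1_WT replicate 3. The part of this in the differences between the ages was not tested. The decidua and trophoblast list includes Hand1, which is also in the heart and lateral plate list. Of its 10 markers, 5 passed 1 TPM in any embryo at E9.5 and 7 at E8.5. The marker lists of somite, tail bud, eye and forebrain, hindbrain, neural crest and heart each had members above 1 TPM at both ages, and no marker was at 0 in every embryo of an age. In whole embryos, fewer cells of a type and less RNA per cell cannot be told apart.

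The members spanned a wide range of levels. In Disp1_WT the order of mean TPM was Crabp1 (1945 ± 133 TPM), Crabp2 (919.6 ± 25.8 TPM), Aldh1a2 (88.5 ± 10.3 TPM), Stra6, Cyp26c1, Cyp26b1, Aldh1a3, Rarb and Dhrs3 (5.73 ± 0.950 TPM; SD, n = 4 each). From Stra6 down to Rarb, each gene's range overlapped that of the next, so neighbours among these 5 are not ordered beyond their spread. Genes farther apart can be, as Stra6 (21.8 to 28.5 TPM) lay wholly above Rarb (14.1 to 16.5 TPM). In Myo10_WT the order was Crabp1, Crabp2, Aldh1a2, Cyp26c1, Rarb, Stra6, Dhrs3, Aldh1a3 and Cyp26b1, with overlapping ranges between Aldh1a2 and Cyp26c1, between Rarb and Stra6, and between Aldh1a3 and Cyp26b1. Both mutant groups held the order of their wild types, except that Cyp26b1 and Cyp26c1, whose means were 19.4 TPM each, changed places in Disp1_CS_INDEL. Crabp1 ranked 62nd to 81st among all genes in the E9.5 libraries and 201st to 412th in the E8.5 libraries.

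**Figure D1:**
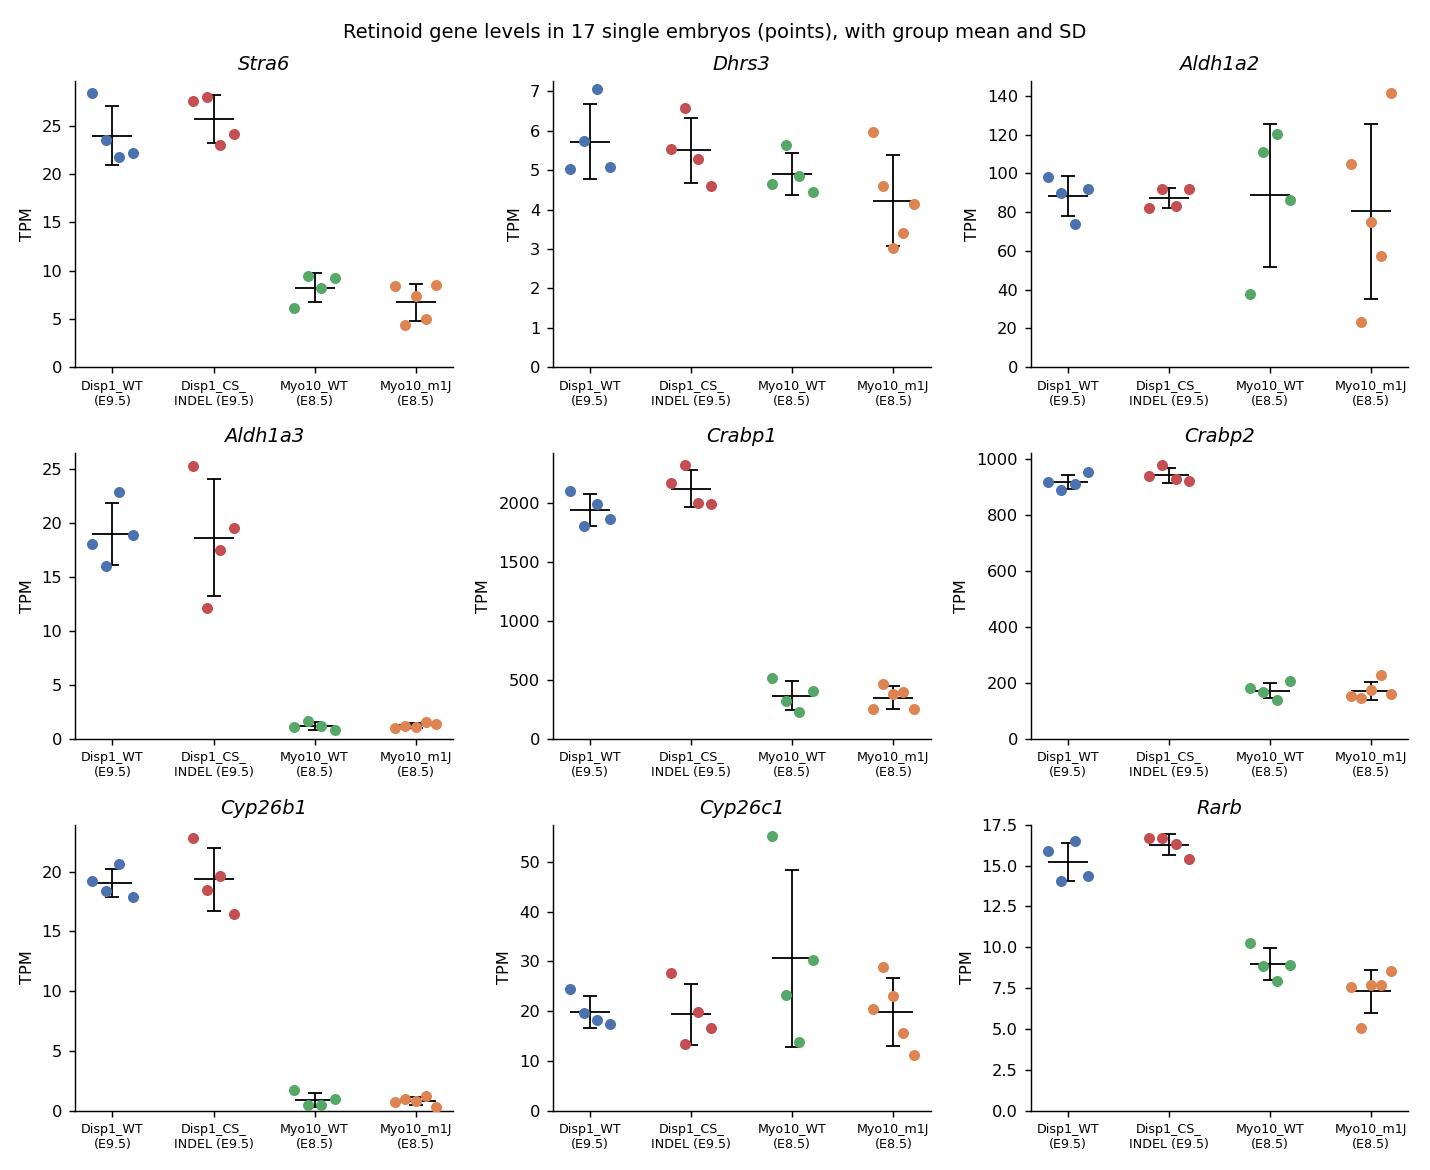
TPM of the 9 retinoid genes (linear axes from 0) in 4 Disp1_WT, 4 Disp1_CS_INDEL, 4 Myo10_WT and 5 Myo10_m1J embryos; each point is an embryo, and bars show the group mean and SD. Stra6, Aldh1a3, Crabp1, Crabp2, Cyp26b1 and Rarb separate the E9.5 from the E8.5 embryos, while mutant and wild-type points overlap in every panel.

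The comparison of the wild types, Disp1_WT at E9.5 with Myo10_WT at E8.5, asks which retinoid genes differ between embryos of these ages. Age, cross and collection change together in it and cannot be told apart. In TPM as deposited, 6 of the 9 genes were higher at E9.5 and none was lower: Aldh1a3, Cyp26b1, Crabp1, Crabp2, Stra6 and Rarb (limma adjusted p from 8.48e-09 to 9.94e-05). Aldh1a2, Dhrs3 and Cyp26c1 did not pass. Of all 13397 genes tested, 79.6% were called, 69.4% higher and 10.2% lower, and the median of all genes was 0.62 on the log2 scale, so 6 of 9 is near the background and the sizes below are read against that median. The member median was 1.45. After scaling each library by its median ratio to a common reference, 72.6% of genes were called, 36.4% higher and 36.2% lower (all-gene median 0.0061), and 5 members were higher and 2 lower. After the structural RNA, histone, small nucleolar and mitochondrial genes were left out and TPM rescaled, 70.1% were called, 42.4% higher and 27.6% lower (median 0.12), and again 5 members were higher and 2 lower. Aldh1a3, Cyp26b1, Crabp1, Crabp2 and Stra6 were higher under all 3 scalings, and Rarb only in TPM as deposited. Between all 8 E9.5 and all 9 E8.5 embryos 6 members did not overlap and all were higher at E9.5, where 66.5% of genes did not overlap (61.6% higher, 4.87% lower).

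**Figure D2:**
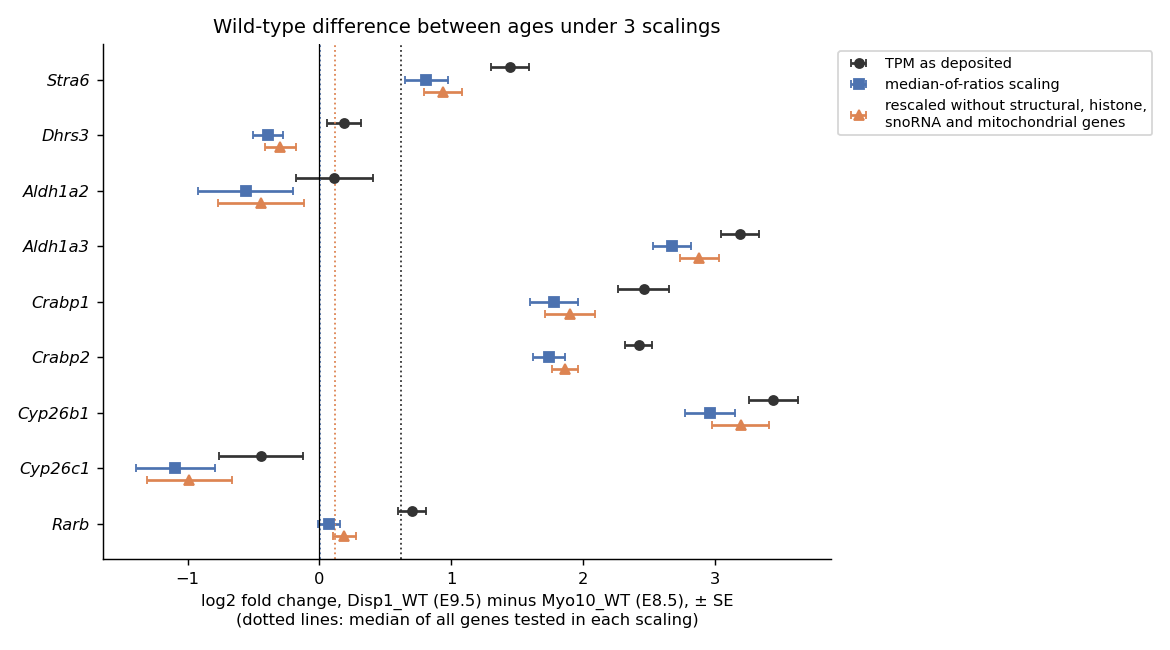
Log2 fold change of log2(TPM + 1), Disp1_WT minus Myo10_WT, for the 9 genes, with bars of 1 SE, in TPM as deposited (circles), after median-of-ratios scaling (squares) and after leaving out structural, histone, small nucleolar and mitochondrial genes (triangles). Dotted lines mark the median of all genes tested in each scaling; Cyp26b1 and Aldh1a3 lie farthest to the right of them, and Rarb lies close to them.

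Stra6 and Dhrs3 act at the entry to the pathway. Stra6 is the membrane receptor through which cells take up retinol from its carrier, and Dhrs3 reduces retinaldehyde back to retinol and so restrains synthesis. Stra6 read 28.5, 23.6, 21.8 and 22.2 TPM in Disp1_WT replicates 1 to 4 and 27.6, 28.0, 23.1 and 24.1 TPM in Disp1_CS_INDEL. At E8.5 Stra6 read 6.09, 9.48, 8.20 and 9.19 TPM in Myo10_WT and 8.39, 4.37, 7.41, 5.01 and 8.49 TPM in Myo10_m1J. Every E9.5 embryo lay above every E8.5 embryo, and the mutant and wild-type ranges overlapped at both ages. Stra6 rose from 8.24 ± 1.54 TPM in Myo10_WT to 24.0 ± 3.06 TPM in Disp1_WT (SD, n = 4 each), a log2 fold change of 1.45 (SE 0.141, limma adjusted p = 2.94e-06). It was 0.81 after median-of-ratios scaling and 0.94 after the transcript classes above were left out. Dhrs3 read 5.03, 5.74, 7.06 and 5.07 TPM in Disp1_WT replicates 1 to 4 and 5.54, 6.58, 5.29 and 4.60 TPM in Disp1_CS_INDEL. At E8.5 Dhrs3 read 4.65, 5.65, 4.85 and 4.44 TPM in Myo10_WT and 5.97, 4.61, 3.03, 3.39 and 4.13 TPM in Myo10_m1J. Dhrs3 was the lowest member at E9.5 and its embryos overlapped between all groups. Its log2 fold change between the wild types was 0.18 (SE 0.129, limma adjusted p = 0.209). With the scaling its sign turned: it was -0.39 (limma adjusted p = 0.0119) after median-of-ratios scaling and -0.30 (limma adjusted p = 0.0473) after the classes were left out, so that Dhrs3 was called lower at E9.5 under both.

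Aldh1a2 and Aldh1a3 make retinoic acid from retinaldehyde. Aldh1a2 is the main synthesis enzyme of the trunk mesoderm, and Aldh1a3 is known from the eye, olfactory and surface ectoderm regions of the head. Aldh1a2 read 98.1, 90.0, 73.9 and 91.9 TPM in Disp1_WT replicates 1 to 4 and 82.1, 92.2, 83.4 and 91.8 TPM in Disp1_CS_INDEL. At E8.5 Aldh1a2 read 37.7, 111, 120.3 and 86.1 TPM in Myo10_WT and 105, 23.2, 74.8, 57.3 and 142 TPM in Myo10_m1J. At E9.5 all 8 embryos lay within 73.9 to 98.1 TPM, a coefficient of variation of 8.68%. At E8.5 they ranged from 23.2 to 142 TPM, a coefficient of variation of 46.9%, with Myo10_WT replicate 1 and Myo10_m1J replicate 2 the lowest of their groups. The log2 fold change between the wild types was 0.11 (SE 0.293, limma adjusted p = 0.732), and it was -0.56 (limma adjusted p = 0.186) after median-of-ratios scaling and -0.44 (limma adjusted p = 0.248) after the transcript classes were left out. Aldh1a2 did not pass in any of the 3, and its direction depended on the scaling and on Myo10_WT replicate 1, without which it was -0.25. Aldh1a3 read 18.0, 16.0, 22.9 and 18.9 TPM in Disp1_WT replicates 1 to 4 and 25.3, 12.1, 17.5 and 19.5 TPM in Disp1_CS_INDEL. At E8.5 Aldh1a3 read 1.06, 1.64, 1.22 and 0.833 TPM in Myo10_WT and 1.00, 1.14, 1.10, 1.53 and 1.37 TPM in Myo10_m1J. The lowest E9.5 embryo (12.1 TPM) was 7.38 times the highest E8.5 embryo (1.64 TPM). Aldh1a3 rose from 1.19 ± 0.342 TPM to 18.9 ± 2.88 TPM (SD, n = 4 each), a log2 fold change of 3.19 (SE 0.147, limma adjusted p = 1.56e-08), and 0.470% of all genes tested had a higher one. It was 2.67 after median-of-ratios scaling and 2.88 after the transcript classes above were left out. The ratio of mean TPM was 15.9, which the pseudocount of 1 lowers on the log2 scale because the E8.5 level is close to 1 TPM.

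Among the Aldh1a transcripts, counted as the sum of Aldh1a1, Aldh1a2 and Aldh1a3, Aldh1a2 made up 80.6% ± 4.07 at E9.5 (SD, n = 8) and 98.0% ± 1.37 at E8.5 (SD, n = 9). Aldh1a3 made up 17.3% ± 4.00 and 1.86% ± 1.27. Its E9.5 shares (11.3 to 23.1%) did not overlap those at E8.5 (0.945 to 4.69%). These shares are ratios within a library and do not move with its scaling. The 8 eye and forebrain markers summed to 41.0 to 55.4 TPM at E9.5 and 1.72 to 12.8 TPM at E8.5, where 4 of them passed 1 TPM in any embryo. Their part in the Aldh1a3 difference was not tested.

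Crabp1 and Crabp2 are the small intracellular proteins that bind retinoic acid. Crabp1 is a classical marker of neural crest and hindbrain, and Crabp2 delivers retinoic acid to its receptors. Crabp1 read 2107, 1811, 1997 and 1864 TPM in Disp1_WT replicates 1 to 4 and 2171, 2326, 2001 and 1997 TPM in Disp1_CS_INDEL. At E8.5 Crabp1 read 514, 322, 231 and 403 TPM in Myo10_WT and 249.5, 469, 378, 394 and 254 TPM in Myo10_m1J. All E9.5 embryos lay above all E8.5 embryos, at least 3.53 times the highest of them. Crabp2 read 920.2, 891, 914 and 954 TPM in Disp1_WT replicates 1 to 4 and 940.2, 982, 932 and 922 TPM in Disp1_CS_INDEL. At E8.5 Crabp2 read 180.2, 167, 138 and 206 TPM in Myo10_WT and 154, 146, 174, 228 and 159.7 TPM in Myo10_m1J. The ages were again apart, and Crabp2 was the most even member at E9.5, with a coefficient of variation of 2.94%. Crabp1 rose from 367 ± 120.3 TPM to 1945 ± 133 TPM (SD, n = 4 each), a log2 fold change of 2.46 (SE 0.192, limma adjusted p = 5.42e-07). Crabp2 rose from 173 ± 28.4 TPM to 919.6 ± 25.8 TPM (SD, n = 4 each), a log2 fold change of 2.42 (SE 0.103, limma adjusted p = 8.48e-09). After median-of-ratios scaling these were 1.78 and 1.74. Of all genes tested, 1.63% and 1.72% had a higher fold change. Although their sum went from 529 to 2966 TPM, Crabp1 kept a like part of it, 66.7% ± 5.35 at E8.5 (SD, n = 9) and 68.5% ± 1.41 at E9.5 (SD, n = 8). The 5 neural crest markers summed to 80.7 to 103 TPM at E9.5 and 14.9 to 55.2 TPM at E8.5, and their part in the Crabp1 difference was not tested.

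Cyp26b1 and Cyp26c1 oxidise retinoic acid to forms that are cleared. Cyp26b1 is known from the hindbrain and, later, the limb bud, and Cyp26c1 from the head mesenchyme and hindbrain. Cyp26b1 read 19.2, 18.4, 20.6 and 17.9 TPM in Disp1_WT replicates 1 to 4 and 22.8, 18.5, 19.7 and 16.4 TPM in Disp1_CS_INDEL. At E8.5 Cyp26b1 read 1.73, 0.473, 0.466 and 0.952 TPM in Myo10_WT and 0.713, 0.978, 0.830, 1.19 and 0.259 TPM in Myo10_m1J. Every E8.5 embryo read 1.73 TPM or less, and the lowest E9.5 embryo was 9.52 times the highest of them. Cyp26b1 rose from 0.904 ± 0.594 TPM to 19.0 ± 1.18 TPM (SD, n = 4 each), a log2 fold change of 3.44 (SE 0.188, limma adjusted p = 4.85e-08), the largest of the 9. Of all genes tested, 0.358% had a higher one, and it was 2.96 after median-of-ratios scaling and 3.20 after the transcript classes above were left out. Cyp26c1 read 24.5, 19.6, 18.1 and 17.4 TPM in Disp1_WT replicates 1 to 4 and 27.7, 13.4, 19.7 and 16.6 TPM in Disp1_CS_INDEL. At E8.5 Cyp26c1 read 55.3, 23.2, 13.8 and 30.3 TPM in Myo10_WT and 20.5, 28.9, 22.9, 15.5 and 11.1 TPM in Myo10_m1J. The E9.5 embryos lay inside the E8.5 range, whose highest value came from Myo10_WT replicate 1. Its log2 fold change between the wild types was -0.44 (SE 0.318, limma adjusted p = 0.218). It was called lower at E9.5 after median-of-ratios scaling, at -1.09 (limma adjusted p = 0.00836), and after the classes were left out, at -0.99 (limma adjusted p = 0.0201). It was also called lower with the mean of the Y-linked genes as a covariate, at -0.79 (limma adjusted p = 0.0157), and without Myo10_WT replicate 3, at -0.75 (limma adjusted p = 0.0195). Without Myo10_WT replicate 1 it was -0.11 (limma adjusted p = 0.638).

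The third enzyme of the family, Cyp26a1, read 13.7 ± 4.03 TPM in Disp1_WT and 26.5 ± 6.62 TPM in Myo10_WT (SD, n = 4 each), a log2 fold change of -0.92 (SE 0.228, limma adjusted p = 0.00305). It fell while Cyp26b1 rose, and the sum of the 3 was 51.8 ± 5.64 TPM at E9.5 (SD, n = 8) and 52.7 ± 14.6 TPM at E8.5 (SD, n = 9) in TPM as deposited. The median of all genes between the wild types was 0.62 there on the log2 scale, so these like sums cannot be read as an unchanged total. Within the sum of the 3 the share of Cyp26b1 was 37.2% ± 3.93 at E9.5 and 1.56% ± 0.638 at E8.5, with no overlap between embryos. The share of Cyp26a1 was 25.3% ± 6.36 and 54.0% ± 11.8, and that of Cyp26c1 37.5% ± 5.20 and 44.5% ± 11.5 (SD, n = 8 and 9). The 2 E9.5 embryos lowest in Cyp26a1, Disp1_WT replicate 3 and Disp1_CS_INDEL replicate 1 (7.98 and 7.97 TPM), are those low in tail bud markers. The summed Aldh1a transcripts were 1.89 to 2.44 times the summed Cyp26 transcripts in the 8 E9.5 embryos and 0.354 to 4.14 times in the 9 E8.5 embryos, lowest in Myo10_m1J replicate 2 and Myo10_WT replicate 1. This ratio is of transcripts and not of enzyme activity.

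**Figure D3:**
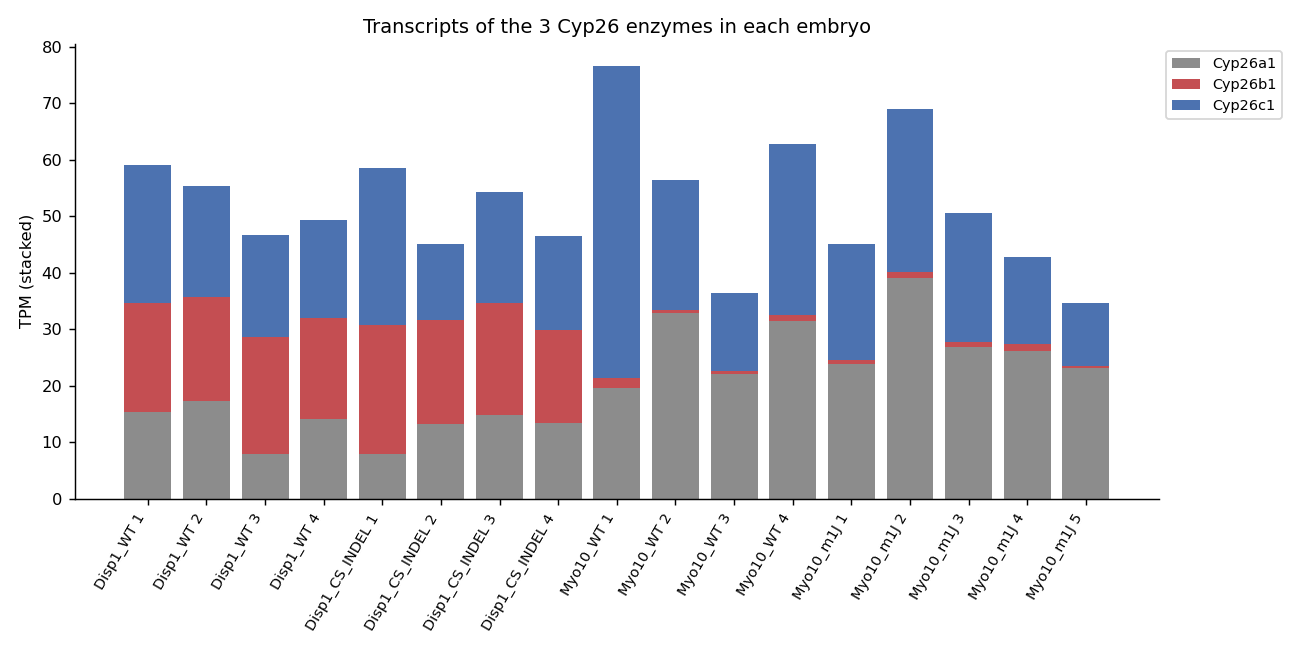
Stacked TPM, as deposited, of Cyp26a1, Cyp26b1 and Cyp26c1 in each of the 17 embryos. The stack heights overlap between ages (45.0 to 59.1 TPM at E9.5, 34.6 to 76.7 TPM at E8.5), while the Cyp26b1 segment takes 32.5 to 44.1% at E9.5 and 0.750 to 2.78% at E8.5.

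Rarb encodes a retinoic acid receptor and is itself switched on by the signal through a response element in its promoter. Its RefSeq promoter is shown because that element is the textbook binding site of the Rar and Rxr dimer. It is printed for build GRCm38.p6, chr14:16575477-16575726, minus strand, which ends at the base before the annotated start, with the repeated units of the element in capitals.
Rarb: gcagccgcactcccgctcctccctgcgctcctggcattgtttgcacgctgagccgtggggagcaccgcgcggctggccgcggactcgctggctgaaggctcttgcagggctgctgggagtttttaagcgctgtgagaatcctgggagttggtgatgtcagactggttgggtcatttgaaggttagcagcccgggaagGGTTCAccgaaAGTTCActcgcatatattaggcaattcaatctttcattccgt
The search was for the element named DR5, a direct repeat with 5 bases between its units, where a unit is spelled AGGTCA (the consensus), AGTTCA (as in the second unit of Rarb), GGTTCA (as in its first unit) or GGGTCA, on both strands, in windows from 250 bases before to 50 after each start. In Rarb the match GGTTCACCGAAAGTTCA starts 53 bases before the start. Of all 32851 RefSeq promoters, 32 (0.0974%) held a match. RefSeq held 12 promoters for 7 of the 9 genes, with none matched for Aldh1a3 and Crabp2, and Rarb was the 1 with a DR5 match, while 2 of the 12 held any single unit, against 43.7% of all promoters. Of the other pathway genes, Cyp26a1 held a DR5 match 32 bases before its start. Since the units searched include the spellings of the Rarb element itself, its match was given in advance and says nothing about the members. A match describes letters in a window and not a bound site.

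Rarb read 15.9, 14.1, 16.5 and 14.4 TPM in Disp1_WT replicates 1 to 4 and 16.7, 16.7, 16.3 and 15.4 TPM in Disp1_CS_INDEL. At E8.5 Rarb read 10.3, 8.85, 7.91 and 8.92 TPM in Myo10_WT and 7.60, 5.04, 7.67, 7.69 and 8.55 TPM in Myo10_m1J. Every E9.5 embryo lay above every E8.5 embryo, and Myo10_m1J replicate 2 was the lowest of all 17. Rarb rose from 8.98 ± 0.965 TPM to 15.2 ± 1.17 TPM (SD, n = 4 each) in TPM as deposited, a log2 fold change of 0.70 (SE 0.107, limma adjusted p = 9.94e-05). That is 0.081 above the median of all genes, and 44.6% of genes tested had a higher one. The call ended after median-of-ratios scaling, at 0.074 (limma adjusted p = 0.433), and after the transcript classes were left out, at 0.19 (limma adjusted p = 0.0741). The Rarb difference therefore passed only where the general shift of all genes was kept in.

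Of the other retinoid genes, 13 of 19 for metabolism and transport were tested between the wild types. Of these 13, 9 were called higher and 3 lower, beside 69.4% and 10.2% of all genes tested. Higher were Fabp5, a fatty acid binding protein that also binds retinoic acid, with a log2 fold change of 1.53 (SE 0.0639), the dehydrogenases Aldh1a7 (2.28, SE 0.137), Aldh1a1 (1.39, SE 0.0959) and Dhrs4 (1.06, SE 0.0874), and Rdh14 (1.14, SE 0.126) and Adh5 (0.63, SE 0.0693). Adh5 lay near the median of all genes and was no longer called under either other scaling, at -0.043 (limma adjusted p = 0.707) and 0.077 (limma adjusted p = 0.296). The 3 lower genes, named after their values were seen, were Cyp26a1, Bco1 (-1.08, SE 0.304), which cleaves carotene, and Rbp4 (-2.36, SE 0.726), the serum retinol carrier made by yolk sac. Rbp4 read 178 TPM in Disp1_WT replicate 3 and 12.0 to 19.9 TPM in the other 3, and 67.4 to 222 TPM in Myo10_WT. It is itself in the list of yolk sac markers summed above, so its likeness to that sum is partly built in. Rdh10, which makes retinaldehyde from retinol in the embryo, read 14.3 ± 0.691 TPM and 14.8 ± 1.95 TPM (SD, n = 4 each). In TPM as deposited it did not pass, at a log2 fold change of -0.043 (SE 0.109, limma adjusted p = 0.728). That lies below the median of all genes there, 0.62, and its values under the other scalings are not given here, so it cannot be read as unchanged. Of the 13 receptors and co-regulators, 9 were higher and 1 lower.

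Among these receptors, Rxra (1.34, SE 0.0966), Rxrb (1.15, SE 0.0959) and Rara (1.08, SE 0.0907) rose, as did Ppard (1.88, SE 0.159) and the co-regulator Rere (1.69, SE 0.206). The lower 1, Rxrg, had a log2 fold change of -0.65 (SE 0.229, limma adjusted p = 0.0224). It lost its call without Myo10_WT replicate 2 or 3, at -0.48 (limma adjusted p = 0.0752) and -0.50 (limma adjusted p = 0.0695). The call was also lost without a filter, in 1 fit of all libraries and with the Y-linked mean as a covariate. It was kept after median-of-ratios scaling, at -1.15 (limma adjusted p = 0.00283), and after the transcript classes were left out, at -1.12 (limma adjusted p = 0.00318). Of 18 tested response genes, 14 were higher and 3 lower. Higher were the trunk gene Hoxb5 (2.66, SE 0.147) and the transcription factors Nr2f1 (3.70, SE 0.351), Zfp703 (2.46, SE 0.179), Tshz1 (1.12, SE 0.0926) and Meis2 (1.02, SE 0.0996), with Tgm2 (1.49, SE 0.156), a transglutaminase. Among the lower genes was Cdx1, again named after its values were seen and known as an early target in the posterior body. Cdx1 fell from 88.2 ± 54.6 TPM to 7.98 ± 1.97 TPM (SD, n = 4 each), a log2 fold change of -2.98 (SE 0.532, limma adjusted p = 3.23e-04). The medians of the lists were 0.78 for metabolism, 0.49 for receptors and 1.09 for response genes, beside 0.62 for all genes. Of all 44 pathway genes tested, 32 were higher and 7 lower as deposited, 22 and 12 of 43 after median-of-ratios scaling, and 23 and 12 of 44 after the classes were left out. Of all genes tested, 69.4% were higher and 10.2% lower as deposited. These shares were 36.4% and 36.2% after median-of-ratios scaling, and 42.4% and 27.6% after the classes were left out.

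The comparison of Disp1_CS_INDEL with Disp1_WT asks whether retinoid transcripts differ when Dispatched is mutated. No member was called, while 0.0301% of all 13294 genes tested were (4 genes), and no member reached an unadjusted p under 0.05 against 301 of all genes (limma). In all 9 genes the mutant and wild-type embryos overlapped, where 1.55% of genes tested did not overlap. Stra6 differed by 0.098 on the log2 scale (95% interval of the ratio 0.923 to 1.24) and Dhrs3 by -0.047 (0.801 to 1.17). For the synthesis enzymes the ratio intervals were 0.871 to 1.13 for Aldh1a2 (-0.012) and 0.723 to 1.28 for Aldh1a3 (-0.057). For the degrading enzymes they were 0.874 to 1.17 for Cyp26b1 (0.015) and 0.712 to 1.27 for Cyp26c1 (-0.073). Crabp1 had the largest difference of the 9, 0.13 (SE 0.0650, 0.988 to 1.21; limma unadjusted p = 0.0801, adjusted p = 1.00), with all 4 mutants above the wild-type mean. Crabp2 differed by 0.037 (0.965 to 1.09) and Rarb by 0.095 (0.958 to 1.19). These intervals are of the fitted log2(TPM + 1) difference, and the narrowest, of Crabp2, ran from 0.965 to 1.09.

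Aldh1a3 and Cyp26c1 had the widest intervals at E9.5, with Disp1_CS_INDEL replicates 1 and 2 their highest and lowest embryos. Left out, these moved the Aldh1a3 difference to -0.21 and 0.12, and the Cyp26c1 difference to -0.25 and 0.079. Without both libraries low in tail bud transcripts, a setting chosen after seeing the data, no member was called. None of the 44 other pathway genes tested was called either. Among the lowest p-values of each list were those of Aldh1a7 (0.31) and Aldh1a1 (0.31) for metabolism, with unadjusted limma p of 0.0180 and 0.0304, Rxrg (0.15) for receptors, and Tshz1 (0.17) and Meis2 (0.078) for response genes, each at an adjusted p of 1.00.

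The comparison of Myo10_m1J with Myo10_WT asks the same of embryos homozygous for m1J. Of the 9 genes, 8 were tested, since Cyp26b1 stayed below the filter of 1 TPM in at least 4 embryos (0.794 ± 0.348 TPM, n = 5, and 0.904 ± 0.594 TPM, n = 4). None was called, with 0.00796% of 12560 genes called (1 gene), and none had an unadjusted p under 0.05, against 854 of all genes (limma). No member separated mutant from wild-type embryos, where 0.995% of genes tested did. The fold change was negative for 7 of the 8, as for 11807 of all 12560 genes, and the member median of -0.22 stands beside -0.16 for all genes. Rarb differed by -0.28 (SE 0.143, 95% interval of the ratio 0.665 to 1.02; limma unadjusted p = 0.0765, adjusted p = 0.473), with all 5 mutants below the wild-type mean. Stra6 differed by -0.28 (0.616 to 1.10) and Dhrs3 by -0.20 (0.686 to 1.11). Cyp26c1 differed by -0.51 (SE 0.335, 0.425 to 1.17; limma adjusted p = 0.473), with all 5 mutants below a wild-type mean that replicate 1 raised. It was -0.17 without Myo10_WT replicate 1 and -0.82 without replicate 3. Without Myo10_m1J replicate 2, Rarb was -0.17 and Stra6 -0.16, and after median-of-ratios scaling they were -0.098 and -0.11. Aldh1a3 differed by 0.034 (0.828 to 1.27), Crabp1 by -0.058 (0.679 to 1.36) and Crabp2 by -0.0078 (0.806 to 1.23). After median-of-ratios scaling Crabp1 and Crabp2 turned to 0.14 and 0.19.

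Aldh1a2 differed by -0.24 with a ratio interval of 0.428 to 1.67, the widest of the 8, and its direction rested on single embryos. Without Myo10_m1J replicate 2 it was 0.14, and without Myo10_WT replicate 1 it was -0.61. The groups also differed in how many embryos carried Y-linked transcripts, 1 of 4 in Myo10_WT and 3 of 5 in Myo10_m1J. Among embryos with them Aldh1a2 was 0.29 higher in the mutants on the log2 scale (3 against 1 embryo), and among those without 0.22 higher (2 against 3). With the mean of the Y-linked genes as a covariate the difference was 0.23 (limma adjusted p = 0.579). The pooled difference in Aldh1a2 thus had the opposite sign within both sets. Of the 41 other pathway genes tested none was called, and among the lowest p-values of each list were those of Rdh10 (-0.23) and Rbp4 (-0.52) for metabolism, Rere (-0.69) for co-regulators and Tshz1 (-0.29) for response genes, each at an adjusted p of 0.473 (limma). At an unadjusted p under 0.05 (limma), 5 of 13 receptors and co-regulators, 4 of 18 response genes and 0 of 10 metabolism and transport genes were lower, beside 811 of all 12560 genes.

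**Figure D4:**
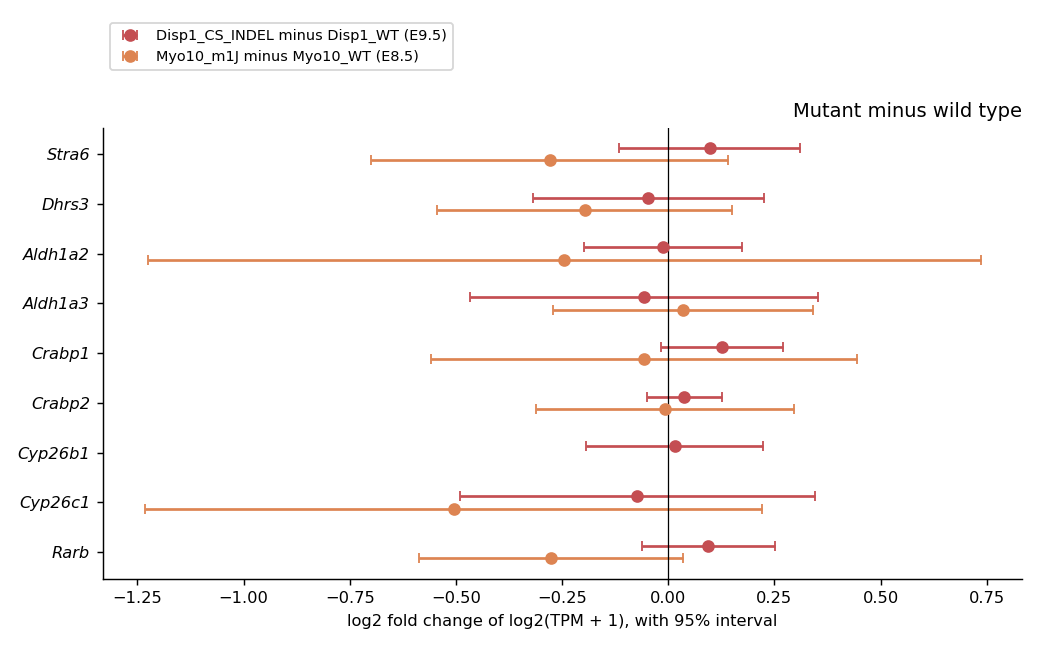
Log2 fold change of log2(TPM + 1), mutant minus wild type, with its 95% interval, for the 9 genes in the Disp1 comparison (E9.5, 4 against 4) and the Myo10 comparison (E8.5, 5 against 4). Every interval includes 0, the Aldh1a2 and Cyp26c1 intervals at E8.5 are the widest, and Cyp26b1 was not tested at E8.5.

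Whether the mutations differed in effect was asked with 1 model over the 17 embryos, as the Disp1 effect minus the Myo10 effect. No member was called, with 0.0216% of 13910 genes called (3 genes). Rarb, which was 0.095 in the Disp1 comparison and -0.28 in the Myo10 comparison, had a difference of 0.37 (SE 0.164, limma unadjusted p = 0.0366, adjusted p = 0.586), the 1 member with an unadjusted p under 0.05, beside 689 of all genes. Stra6 had 0.38 (SE 0.239) and Cyp26c1 0.43 (SE 0.450). The Cyp26c1 value was 0.10 without Myo10_WT replicate 1 and 0.74 without replicate 3, and after median-of-ratios scaling Rarb was 0.20, Stra6 0.21 and Cyp26c1 0.25. The all-gene median of this difference was 0.16.

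At E8.5 Aldh1a2, Stra6, Crabp1, Cyp26b1 and Cyp26c1 varied together or in opposition between embryos. Over the 9 embryos, with group means removed, Aldh1a2 and Stra6 were high and low together (Pearson r = 0.91, Spearman rho = 0.90, r without the 2 farthest embryos 0.75). Aldh1a2 ran opposite to Crabp1 (r = -0.88, rho = -0.92, without 2 embryos -0.84), to Cyp26b1 (r = -0.80, rho = -0.90, without 2 embryos -0.91) and, less steadily, to Cyp26c1 (r = -0.78, rho = -0.70, without 2 embryos -0.51). Crabp1 went with Cyp26c1 (r = 0.83, rho = 0.75, without 2 embryos 0.65) and Cyp26b1 (r = 0.84, rho = 0.90, without 2 embryos 0.77). The other members followed Aldh1a2 less, with r of 0.48 for Rarb (rho 0.20, without 2 embryos 0.21), 0.21 for Aldh1a3 (0.10 and 0.06), 0.14 for Dhrs3 (0.37 and 0.56) and -0.13 for Crabp2 (-0.38 and -0.79). Over the 8 E9.5 embryos, where Aldh1a2 varied little, its r was 0.52 with Stra6 (rho 0.64, without 2 embryos 0.80) and 0.09 with Crabp1 (rho 0.26, without 2 embryos 0.65). These are descriptions over few embryos that share groups, scaling and a labelled day, and Cyp26b1 at E8.5 lies near or below 1 TPM. Within E8.5 the neural crest markers summed to 14.9 to 55.2 TPM and the primitive blood markers to 83.1 to 4997 TPM. An equal stage within the day therefore cannot be assumed, and the part of stage was not tested.

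**Figure D5:**
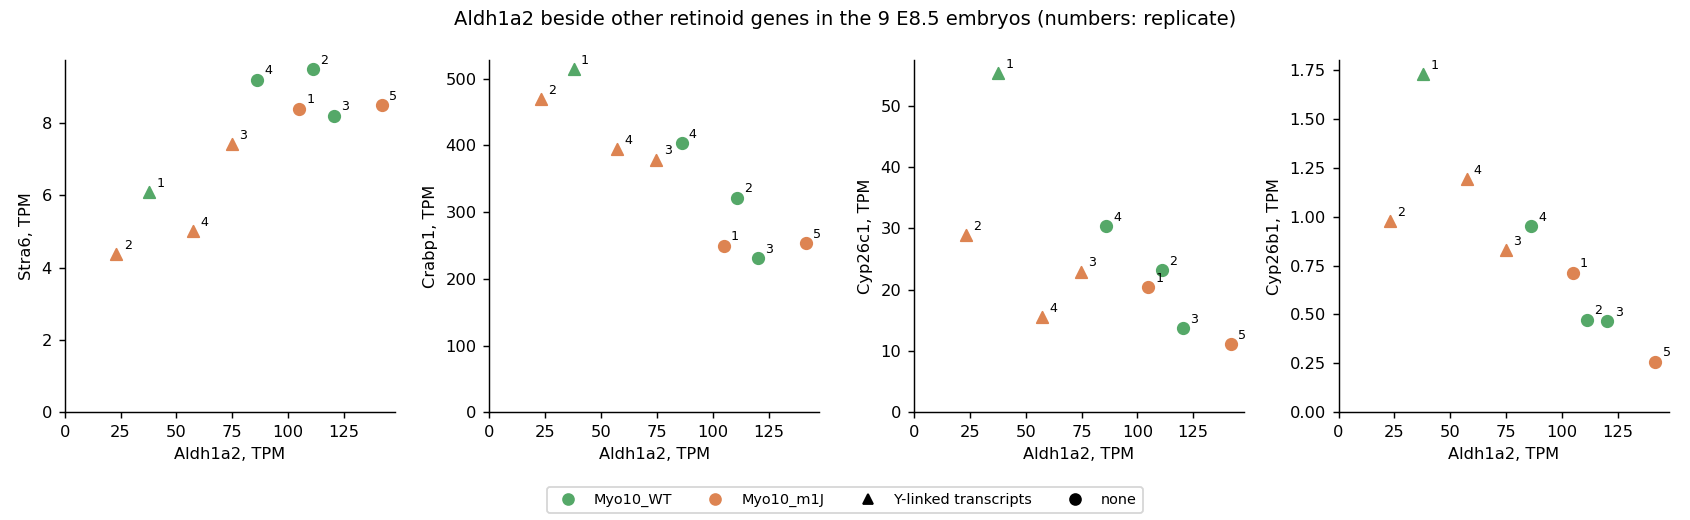
TPM of Stra6, Crabp1, Cyp26c1 and Cyp26b1 against TPM of Aldh1a2 in the 9 E8.5 embryos (4 Myo10_WT, 5 Myo10_m1J); numbers are replicates and triangles mark embryos with Y-linked transcripts. The 4 triangles lie at 23.2 to 74.8 TPM of Aldh1a2 and the 5 circles at 86.1 to 142 TPM, in both genotypes.

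Marker levels of the embryonic regions moved with the same members at E8.5. Crabp1 went with the neural crest markers (r = 0.98, rho = 0.97, without the 2 farthest 0.98), and Cyp26c1 with the eye and forebrain markers (r = 0.98, rho = 0.95, without 2 embryos 0.96) and the hindbrain markers (r = 0.95, rho = 0.95, without 2 embryos 0.86). Aldh1a2 ran opposite to the neural crest markers (r = -0.86, rho = -0.92, without 2 embryos -0.87) and to the primitive blood markers (r = -0.90, rho = -0.87, without 2 embryos -0.83), as did Stra6 to the blood markers (r = -0.95, rho = -0.83, without 2 embryos -0.90). The pairs named were not particular to a single region. Crabp1 also went with the hindbrain (r = 0.92), eye and forebrain (0.84) and blood markers (0.77). Cyp26c1 also went with the neural crest (r = 0.88) and the heart and lateral plate markers (0.84, without 2 embryos 0.52). Aldh1a2 went with the somite and presomitic mesoderm markers (r = 0.82, rho = 0.68, without 2 embryos 0.55). It ran opposite to the hindbrain (-0.83, without 2 embryos -0.65) and eye and forebrain markers (-0.84, without 2 embryos -0.67). Over the 8 E9.5 embryos r was lower for Crabp1 and neural crest (0.32, rho 0.21, without 2 embryos 0.78) and for Cyp26c1 and eye and forebrain (0.26, rho 0.29, without 2 embryos -0.10). At that age r was 0.92 for Cyp26c1 and neural crest (rho 0.83, without 2 embryos 0.78), 0.77 for Cyp26c1 and hindbrain, and -0.81 for Stra6 and blood. For Aldh1a2 it was -0.28 with neural crest (without 2 embryos 0.36) and -0.29 with blood. With the somite and presomitic mesoderm markers it was 0.80 for Aldh1a2 (rho 0.43, without 2 embryos -0.21), with hindbrain -0.23, and with eye and forebrain -0.56 (without 2 embryos 0.71). In Myo10_WT replicate 1, the neural crest sum was 55.2 TPM (14.9 to 32.6 in the other 3) and the somite and presomitic mesoderm sum 55.8 TPM (105 to 127). The part of these markers in the levels of the members was not tested. By the presence of Y-linked transcripts, 2 of the 9 members, Aldh1a2 and Stra6, did not overlap at E8.5, where 2.33% of genes tested did not. Stra6 read 4.37 to 7.41 TPM in the 4 embryos with them and 8.20 to 9.48 TPM in the 5 without. At E9.5 the 2 embryos without them lay inside the range of the other 6 for Aldh1a2. This split was noticed in the data and was not tested.

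The genes whose levels followed each member most closely were sought among 9981 genes with a mean of at least 5 TPM, by Pearson r over all 17 libraries with group means removed. Picking the highest r of so many genes gives high values by itself. The size of r alone therefore does not mark a link, and none was tested. For Stra6 the closest gene was Aldh1a2 (r = 0.86), itself a member, followed by Fgfbp3 (0.85), which was also second for Aldh1a2 (0.89) behind Car3 (0.94). Crabp1 was followed by Sdc3 and Plvap (0.98 each), Crabp2 by Meox2 (0.93) and Tnfaip6 (0.86), Cyp26b1 by Scube2 (0.94) and Slit1 (0.93), and Cyp26c1 by Ppp1r14c and Unc45b (0.94 each). Dhrs3 was followed by Coro1a (0.87) and Slc27a4 (0.80), Rarb by Dach1 (0.79) and Draxin (0.76), and Aldh1a3 by Wfdc1 (0.71) and Tuba1c (0.62). Over these 18 pairs rho ran from 0.58 to 0.93 and r without the 2 farthest embryos from 0.31, for Aldh1a3 and Wfdc1, to 0.96. Within E9.5 alone r was 0.84 for Aldh1a2 and Car3, 0.55 for Crabp1 and Sdc3, 0.39 for Crabp2 and Meox2, and -0.67 for Aldh1a2 and Fgfbp3. For Aldh1a3 the reverse held, with r = 0.78 for Wfdc1 at E9.5 and 0.47 at E8.5.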

How the data were processed

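RNA of 17 single whole embryos was sequenced from TruSeq libraries on a NovaSeq instrument, per the labels' protocols. The authors deposited 1 table of TPM for 41709 gene symbols. The submitters' processing notes name the build GRCm39 (mm39), while the aligner, quantifier, annotation and strand setting were not given in the sources used here. Since TPM keeps no depth, no counting interval or floor is given.

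Tests used log2(TPM + 1), a scale on which folds of genes near 1 TPM are understated. Genes with at least 1 TPM in at least 4 libraries of a fit were tested with limma 3.58.1 (R 4.3.3), a trend of variance on mean level, and Benjamini-Hochberg adjusted p-values over all genes tested, at a threshold of 0.05. The Disp1, Myo10 and wild-type comparisons were each fitted on their own groups, and the difference of the mutant effects on all 17 libraries. The fits were also run on simulated data with independent noise for each gene and no scaling shift. The outcome is not given and bears on no result here. The members, gene lists, markers and tests were chosen with earlier results of these data known. Named were all members, the called pathway genes of each list (the 6 with the smallest p where more were called), the 2 with the smallest p where none was called, the 2 closest genes of each member, and, after their values were seen, the pathway genes lower at E9.5, with Rdh10 in the wild types. Some genes that this rule names are not reported here.

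The settings varied were the pseudocount (0.1), the filter (none, or a mean of at least 5 TPM), the scaling (median-of-ratios, or leaving out 276 structural RNA, histone, small nucleolar and mitochondrial genes) and the model (without the trend, with all libraries fitted together, with the replicate number as a block, or with the Y-linked mean added), and libraries were dropped in turn. The fit without both libraries low in tail bud transcripts was added after seeing the data. Promoters are from a RefSeq table of GRCm38.p6. Python 3.11.15 was used for summaries. Embryos are separate animals, and all 17 entered the results.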

Additional observations from a re-analysis of the deposited data

Results flagged for a closer look

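Rarb in Myo10_m1J replicate 2 read 5.04 TPM, far below the other 4 Myo10_m1J embryos (7.60 to 8.55 TPM). On the log2(TPM + 1) scale its gap to the nearest was 0.771 of the range of the group, above Dixon's critical value of 0.71 for 5 samples. Of the 36 sets of a member and a group checked this was the 1 that passed, and chance alone flags about 1 in 20 of such sets. The same embryo held the highest decidua and trophoblast marker sum (254 TPM) and primitive blood marker sum (4997 TPM) of the E8.5 embryos, and the lowest Aldh1a2, at 23.2 TPM. The part of these in the Rarb value was not tested.

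The Rarb differences had opposite signs in the mutant comparisons, neither of which passed, with all 4 Disp1_CS_INDEL embryos above the Disp1_WT mean and all 5 Myo10_m1J embryos below the Myo10_WT mean. The difference between the effects was 0.37 on the log2 scale, which missed the threshold when adjusted over the genes tested (0.586, limma adjusted p). It was 0.20 after median-of-ratios scaling, where the Myo10 difference went from -0.28 to -0.098. Without Myo10_m1J replicate 2 the Myo10 difference was -0.17.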

How the results depend on the processing

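No member was called in either mutant comparison or in the difference of their effects under any alternative run. In the wild-type comparison 6 members were called, or 7 under both other scalings, with the Y-linked covariate and without Myo10_WT replicate 3, as given in the report. The other values here are log2 fold changes whose sign turned. Under median-of-ratios scaling these were, in the wild types, Aldh1a2 -0.56, Dhrs3 -0.39 and Adh5 -0.043. In the Myo10 comparison they were Crabp1 0.14 and Crabp2 0.19. In the difference of effects they were Cyp26b1 -0.032, Dhrs3 -0.0023, Crabp1 -0.010 and Crabp2 -0.15. Without structural, histone, small nucleolar and mitochondrial genes they were Aldh1a2 -0.44 and Dhrs3 -0.30 (wild types), Crabp2 0.046 (Myo10) and Crabp2 -0.0089 (difference of effects). With the Y-linked covariate Aldh1a2 was 0.23 (Myo10) and -0.057 (difference of effects). Without both libraries low in tail bud transcripts, in the Disp1 comparison, Cyp26b1 was -0.027 and Dhrs3 0.038. The cause was not tested. Calls over all genes moved by more than 1.5 times from 4 in the Disp1 comparison, to 8 with median-of-ratios scaling, 2 without a filter, with a mean of at least 5 TPM, in 1 fit of all libraries or without both tail-low libraries. With 1 library left out they were 1 to 3. In the Myo10 comparison 1 became 2 without a filter or without the structural and other classes, and 3 without Myo10_WT replicate 4, and in the difference of effects 3 became 8 without a filter.

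With 1 library left out at a time, signs turned in the Disp1 comparison for Aldh1a2 (-0.096 to 0.039), Aldh1a3 (-0.21 to 0.12), Cyp26b1 (-0.064 to 0.086), Cyp26c1 (-0.25 to 0.079) and Dhrs3 (-0.12 to 0.044). In the Myo10 comparison they turned for Aldh1a2 (-0.61 to 0.14), Aldh1a3 (-0.047 to 0.13), Crabp1 (-0.26 to 0.12) and Crabp2 (-0.11 to 0.081), in the wild types for Aldh1a2 (-0.25 to 0.30), and in the difference of effects for Aldh1a2 (-0.15 to 0.59), Aldh1a3 (-0.25 to 0.087), Cyp26b1 (-0.11 to 0.19) and Crabp2 (-0.044 to 0.15).

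The replicate numbers did not pair the samples (same-number correlations from -0.287 to 0.463). With the replicate block, 0 members were called in the Disp1 and Myo10 comparisons and in the difference of effects, and 6 in the wild types. Calls over all genes went from 4 to 2 (Disp1), from 1 to 46 (Myo10), from 10668 to 10970 (wild types) and from 3 to 13 (difference of effects). In the Myo10 comparison 3 pathway genes were then called lower, Rere among them (limma adjusted p = 0.0491), Crabp1 was 0.046 and Crabp2 0.014. In the difference of effects Cyp26b1 was -0.046.

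Depth is unknown, so for members near 1 TPM, Aldh1a3 and Cyp26b1 at E8.5, counting error cannot be given.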
